A study of Mus musculus with 24 samples.

Results

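The miR-30 family is a group of microRNAs (miRNAs), small RNAs that bind messenger RNAs and lower their output. The members described here are the guide strands mmu-miR-30a, mmu-miR-30b, mmu-miR-30c, mmu-miR-30d and mmu-miR-30e, found by assay name with strands marked by an asterisk left out. These are 5 of the 584 miRNA assays on the arrays. The study profiled miRNAs by real-time PCR in muscle stem cells, which repair skeletal muscle after injury, taken from male C57BL/6 mice aged 8 weeks. Quiescent stem cells (QSC) form the 0 h group, and activated stem cells (ASC) form groups at 36 h, 60 h and 72 h after injury. Each group has 3 arrays of card A, which holds all 5 members, and 3 arrays of card B, 24 arrays in all. According to the design text these are technical replicates, so every p-value below measures the spread between repeat measurements and not between mice. No cell sort, agent of injury or number of animals per group is named in the labels.

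As background, a miRNA hairpin is cut into a 5p and a 3p strand, and one of them, the guide, is loaded into an Argonaute protein. The guide finds its targets mainly through bases 2 to 8, the seed, which is the same throughout the miR-30 family. The family is broadly expressed, is known for restraining epithelial to mesenchymal transition and fibrosis, and is abundant in adult heart and skeletal muscle. Its targets include mRNAs of the GW182 protein Tnrc6a and of the transcription factor Snai1, neither of which was measured on these arrays.

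RefSeq (assembly GRCm38.p6) sequences matched 3 of the 5 members by name, miR-30a, miR-30c and miR-30e. They are shown with the seed in capitals because the members share it while their time courses differ, and miR-384-5p is shown because it carries the same seed outside the family name.
miR-30a: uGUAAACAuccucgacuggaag
miR-30c: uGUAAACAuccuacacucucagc
miR-30e: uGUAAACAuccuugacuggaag
miR-384-5p: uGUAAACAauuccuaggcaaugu
The seed GUAAACA occurred in 4 of 1679 distinct mature mouse miRNA names of the table (0.238%), which are the 4 printed here. This count leaves out miR-30b and miR-30d, which had no match by name, so it is not the full set of carriers. Counted from 1 at the 5′ end, miR-30a and miR-30e differed by the single substitution C13U and were identical at 21 of 22 positions. miR-30a and miR-30c were identical at 17 of 22 positions, with the first difference at position 13, and miR-30a and miR-384-5p at 12 of 22. Whether each PCR assay reads its own member alone among such close sequences was not tested.

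On the genome the family is scattered in clusters. The miR-30a strand lies on chromosome 1 (chr1:23272274-23272295, plus strand). The miR-30c strand is encoded by a pair of hairpins, Mir30c-2 on chromosome 1 (chr1:23291714-23291736, plus strand) and Mir30c-1 on chromosome 4 (chr4:120769584-120769606, minus strand). The miR-30e strand lies beside the latter (chr4:120772660-120772681, minus strand). The hairpins of miR-30a and miR-30c-2 are 19.36 kb apart, and those of miR-30c-1 and miR-30e are 2.98 kb apart, both within the span of Nfyc, a gene for a subunit of the CCAAT-binding factor NF-Y. An assay of miR-30c reads the product of both of its hairpins together. miR-384-5p lies on chromosome X (chrX:105344332-105344354, minus strand).

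A level is a log2 value, the mean threshold cycle (Ct) of U6 RNA on an array minus the assay's own Ct, and a higher level means more RNA relative to U6. Levels are compared over time within an assay and never between assays, since each assay has its own efficiency. Each array of card A detected 181 to 212 of 375 miRNA assays and each of card B 89 to 120 of 209, where detection means a Ct below 35. U6 itself moved against the other control RNAs. On card A the log2 changes against 0 h, at 36 h, 60 h and 72 h in turn, were -0.88, -2.40 and -3.05 for snoRNA202, -0.22, -0.34 and -0.87 for snoRNA135, -0.15, -1.06 and -1.501 for U87, and 0.65, 0.11 and -0.32 for Y1. The median change of the tested card A assays at 36 h was 0.91 with U6, 1.79 with snoRNA202, 1.12 with snoRNA135, 1.06 with U87, 0.26 with Y1 and -0.38 with the global mean (the mean of the assays detected on all 12 arrays of a card). At 60 h these medians were -0.49, 1.91, -0.15, 0.56, -0.60 and -0.34, and at 72 h they were -1.37, 1.68, -0.50, 0.13, -1.04 and -0.34, in the same order. Changes are therefore given relative to U6 and also relative to the card A median.

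Marker miRNAs of muscle and of other cells also moved. The summed level of the 4 muscle lineage markers (miR-1, miR-133a, miR-133b and miR-206), all detected in every group, was -4.04 to -3.70 at 0 h and -1.02 to -0.94 at 72 h. miR-489, which is reported to keep muscle stem cells quiescent, was at -9.19 to -8.93 at 0 h and at -15.91 to -15.58 at 72 h. Leukocyte markers (6 of 6 detected at 36 h, 5 in the other groups, without miR-142-5p at 0 h) summed to -5.38 to -5.34 at 0 h, -3.72 to -3.65 at 36 h and -6.57 to -6.44 at 60 h. Single leukocyte miRNAs did not all follow this sum. Relative to U6, miR-142-3p, miR-223, miR-155 and miR-146a lay above 0 h at 60 h, and miR-150 lay below it. At 72 h miR-142-3p and miR-223 were still well above 0 h, so the lower sum does not show that leukocyte signal was gone. Both endothelial markers, the strands of miR-126, summed to -4.52 to -4.43 at 0 h, -2.29 to -2.28 at 36 h and -6.28 to -6.19 at 60 h. The 4 mesenchymal and smooth muscle markers, all detected, summed to -3.23 to -3.11, -2.76 to -2.70 and -6.16 to -6.13 at these times. Of the erythroid markers, 1 of 2 was on the cards, miR-451, which was not detected at 0 h and was detected on 3 of 3 arrays at 36 h. Of 6 epithelial markers 1 was detected on 3 of 3 arrays at 0 h and 3 at 36 h. Relative to U6, the leukocyte, endothelial and mesenchymal sums were highest at 36 h, as were miR-30a, miR-30d and miR-30e. With the global mean miR-30a, miR-30d and miR-30e lay below 0 h at 36 h (-0.36, -0.43 and -0.14). The sums were not taken with other normalizers. The part of other cell types in the changes below was not tested. In such bulk RNA, fewer cells of a type and less RNA per cell cannot be told apart.

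All 5 members were detected on 12 of 12 arrays, with Ct values from 19.4 to 27.2 and a standard deviation of 0.0081 to 0.171 among the 3 arrays of a group. The level of miR-30a was -7.07, -7.06 and -7.07 on the 0 h arrays, -6.18, -6.12 and -6.10 at 36 h, -8.78, -8.75 and -8.89 at 60 h and, last, -9.79, -9.97 and -10.13 at 72 h. It was highest at 36 h and lowest at 72 h, and no 2 groups overlapped. The level of miR-30d was -9.01, -9.09 and -9.21 on the 0 h arrays, -8.27, -8.13 and -8.34 at 36 h, -10.83, -11.12 and -10.92 at 60 h and, last, -12.04, -12.02 and -12.06 at 72 h. The level of miR-30e was -7.80, -7.67 and -7.74 on the 0 h arrays, -6.68, -6.57 and -6.50 at 36 h, -8.76, -8.83 and -9.00 at 60 h and, last, -9.85, -9.92 and -10.07 at 72 h. Both had the order of miR-30a, from 36 h down through 0 h and 60 h to 72 h, again without overlap between groups. The share of all assays without such overlap was not counted, here or below, so it cannot be called particular to these members.

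The remaining pair had a flatter start. The level of miR-30b was -5.38, -5.36 and -5.32 on the 0 h arrays, -5.24, -5.19 and -5.30 at 36 h, -6.28, -6.24 and -6.26 at 60 h and, last, -7.19, -7.19 and -7.32 at 72 h. The level of miR-30c was -4.44, -4.38 and -4.50 on the 0 h arrays, -4.57, -4.60 and -4.51 at 36 h, -5.73, -5.86 and -5.80 at 60 h and, last, -6.78, -6.79 and -7.02 at 72 h. For both, the 0 h and 36 h arrays were close neighbours that did not overlap, miR-30b slightly higher and miR-30c slightly lower at 36 h relative to U6, and with U6 neither difference passed the p threshold. The 60 h and 72 h arrays lay below them.

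**Figure D1:**
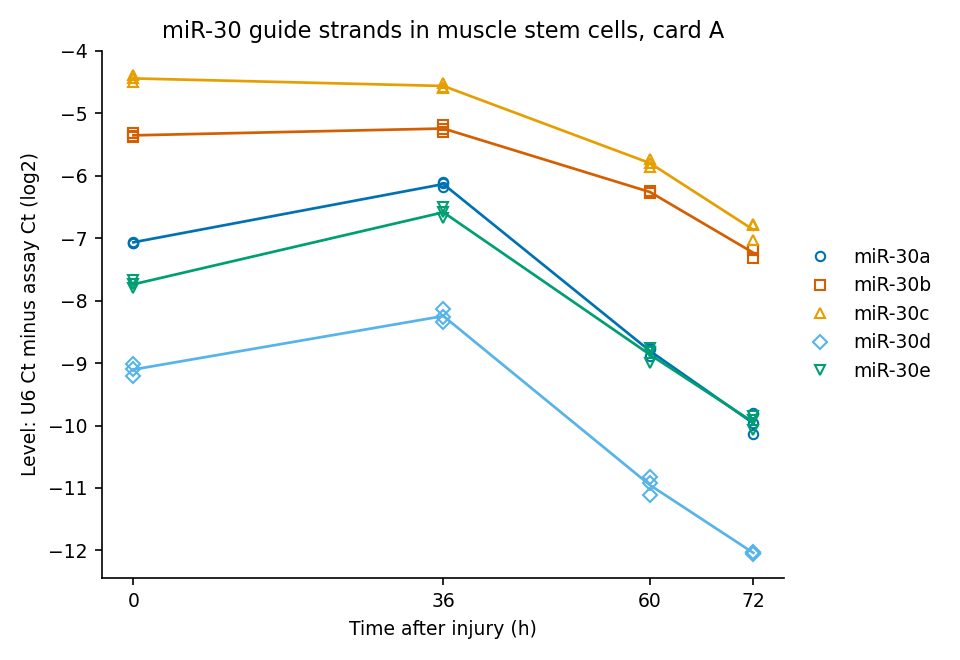
Level of each miR-30 member on each card A array (open symbols, log2, U6 Ct minus assay Ct) against time after injury in hours, with lines through the means of 3 arrays. Relative to U6, miR-30a, miR-30d and miR-30e peak at 36 h while miR-30b and miR-30c change by 0.11 and -0.12 there, and all 5 are lowest at 72 h. The vertical order of the members is not compared. With the global mean in place of U6, miR-30a, miR-30d and miR-30e lie below 0 h at 36 h (-0.36, -0.43 and -0.14). With snoRNA202 the 60 h and 72 h means lie above the 0 h means, and with U87 that of miR-30b at 60 h does.

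The comparison of 36 h with 0 h covers the passage from quiescence to early activation. Relative to U6, miR-30e was 2.22-fold higher (log2 1.15 ± 0.08 SE, limma adjusted p = 7.16e-07, n = 3 arrays per group) and was the only member called, meaning that it met both limits set for a call, 2-fold and an adjusted p of 0.05. This is 1 of 5 members called higher, against 44.1% of all 272 tested assays, and 0 of 5 called lower, against 12.1%. miR-30a (log2 0.93 ± 0.08, adjusted p = 2.74e-06) and miR-30d (0.86 ± 0.09, adjusted p = 8.47e-06) passed the p threshold but were under 2-fold. miR-30b was at 0.11 ± 0.06 (adjusted p = 0.098) and miR-30c at -0.12 ± 0.07 (adjusted p = 0.165). With the global mean as normalizer the changes of miR-30a, miR-30d and miR-30e turned to -0.36, -0.43 and -0.14, and with snoRNA202 they were 1.81, 1.73 and 2.03. Under the global mean miR-30b (-1.18) and miR-30c (-1.41) were called lower, against 89 of all 272 tested assays. With Y1 no member was called by limma, although 4 of 5 had an unadjusted p under 0.05. These went in both directions, with miR-30a (0.28) and miR-30e (0.50) higher and miR-30b (-0.54) and miR-30c (-0.77) lower. Of all 272 tested assays, Y1 gave 75 called higher and 68 called lower. With snoRNA202, snoRNA135 and U87, 3 of 5 were called higher, namely miR-30a, miR-30d and miR-30e. Of all 272 tested assays, 180, 139 and 136 were called higher with these in turn. U87 was added as a normalizer after the data were seen. Against the median of the 177 tested card A assays, miR-30a, miR-30d and miR-30e lay at 0.02, -0.05 and 0.24, and miR-30b and miR-30c at -0.80 and -1.03.

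At 60 h against 0 h, 4 of 5 members were called lower relative to U6, against 36.4% of all 250 tested assays. When snoRNA202 was the normalizer 3 of 5 were called higher, against 179 of the 250 assays. None was called either way with U87, against 111 assays called higher and 51 called lower. None was called higher with U6, against 28.0% of all assays. miR-30d was 3.61-fold lower (log2 -1.85 ± 0.09, adjusted p = 1.31e-08) and miR-30a 3.34-fold lower (-1.74 ± 0.08, adjusted p = 1.29e-08). miR-30c was 2.56-fold lower and miR-30e 2.18-fold lower. miR-30b, at -0.91 ± 0.06, passed the p threshold (adjusted p = 1.04e-07) but was under 2-fold. With U87 the changes were -0.69 (miR-30a), 0.15 (miR-30b), -0.30 (miR-30c), -0.80 (miR-30d) and -0.07 (miR-30e), and 2 of 5 had an unadjusted p under 0.05. With snoRNA135 (-0.79) and the global mean (-0.97) miR-30e was under 2-fold and 3 members were called lower, and with Y1 all 5 were. Of all 250 tested assays, 76, 86 and 100 were called lower with these in turn. Against the card A median the members lay at -1.25 (miR-30a), -0.42 (miR-30b), -0.86 (miR-30c), -1.36 (miR-30d) and -0.63 (miR-30e), so each was below the middle of the 168 tested assays.

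At 72 h against 0 h, 5 of 5 members were called lower relative to U6, against 45.9% of all 244 tested assays. With snoRNA202, by contrast, their changes were between 0.11 and 1.17. Only miR-30b was then called higher, against 166 of the 244 assays. None was called higher with U6, against 20.9%. With U87, miR-30a (-1.40) and miR-30d (-1.43) were called lower and the other 3 were at -0.92 to -0.38, and with the global mean 4 were called lower, miR-30b (-0.85) being under 2-fold. Of all 244 tested assays, 60 were called lower with U87 and 79 with the global mean. miR-30d was 7.65-fold lower (log2 -2.94 ± 0.09, adjusted p = 2.44e-10) and miR-30a 7.46-fold lower (-2.90 ± 0.08, adjusted p = 1.65e-10). miR-30c was 5.36-fold, miR-30e 4.62-fold and miR-30b 3.68-fold lower. Against the card A median the members lay at -1.53, -0.51, -1.06, -1.57 and -0.84 from miR-30a to miR-30e. The comparisons with 0 h all use the same 3 control arrays.

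**Figure D2:**
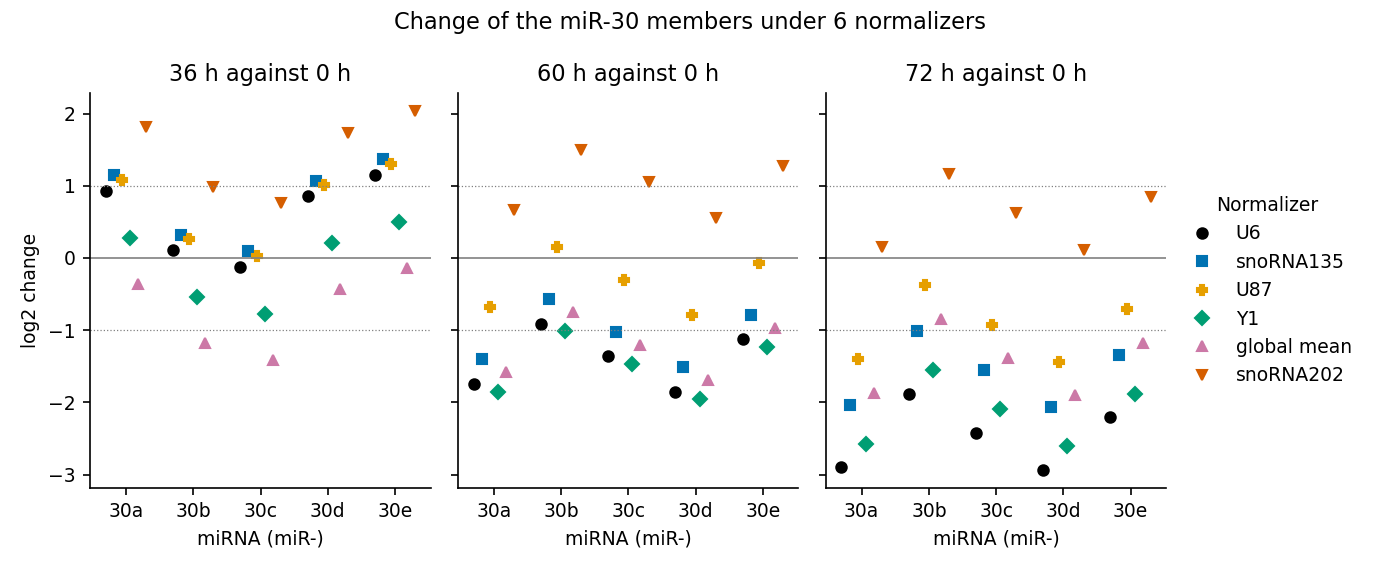
Log2 change of each miR-30 member against 0 h at 36 h, 60 h and 72 h under 6 normalizers (symbols), with dotted lines at the 2-fold limits. At 60 h and 72 h the changes lie below 0 with U6, snoRNA135, U87, Y1 and the global mean, except miR-30b with U87 at 60 h (0.15), and above 0 with snoRNA202; at 36 h the sign of every member depends on the normalizer, and the spacing between members is the same under each.

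Between the later groups, 60 h against 36 h was the largest of the 3 consecutive steps for every member relative to U6. All 5 members were called lower relative to U6, against 49.5% of 279 tested assays, and none higher, against 5.38%, while miR-30b and miR-30c turned positive with snoRNA202 (0.51 and 0.29) and under the global mean (0.43 and 0.21). miR-30d fell 6.53-fold (log2 -2.71 ± 0.09), miR-30a 6.38-fold (-2.67 ± 0.08) and miR-30e 4.86-fold (-2.28 ± 0.08), with adjusted p between 6.14e-10 and 2.79e-09. These 3 remained lower under every normalizer tried, with values from -1.18 to -2.71 for miR-30d, -1.15 to -2.67 for miR-30a and -0.75 to -2.28 for miR-30e. miR-30c fell 2.36-fold (-1.24 ± 0.07) and miR-30b 2.02-fold (-1.02 ± 0.06), and the latter was under 2-fold (-0.99) when replicate 2 of the 36 h group was left out. With U87 this pair was at -0.33 and -0.11 and only the other 3 members were called lower, against 90 of 279 tested assays. Against the card A median of -1.27, miR-30a, miR-30d and miR-30e lay at -1.41, -1.44 and -1.01, and miR-30b and miR-30c at 0.25 and 0.03.

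From 60 h to 72 h the members moved by like amounts. Relative to U6, 4 of 5 were called lower, against 35.8% of 265 tested assays, and none higher, against 0.755%. The log2 changes were -1.16 (miR-30a), -0.97 (miR-30b, under 2-fold), -1.07 (miR-30c), -1.08 (miR-30d) and -1.08 (miR-30e), all within 0.29 of the card A median of -0.87. With each of snoRNA202, snoRNA135, U87, Y1 and the global mean the members stayed negative and none reached 2-fold. Of all 265 tested assays, 37, 51, 53, 77 and 17 were called lower with these in turn. At 72 h against 36 h, 5 of 5 were called lower relative to U6, against 69.3% of 270 tested assays, and none higher, against 4.07%. miR-30a was 14.2-fold and miR-30d 13.9-fold lower, miR-30e 10.3-fold, miR-30c 4.93-fold and miR-30b 3.97-fold. With the global mean, miR-30b and miR-30c were at 0.33 and 0.02 in this comparison, and with snoRNA202 miR-30b was at 0.18. With U87, 3 of 5 were called lower, against 116 of 270 tested assays, miR-30b (-0.64) and miR-30c (-0.95) being under 2-fold.

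**Figure D3:**
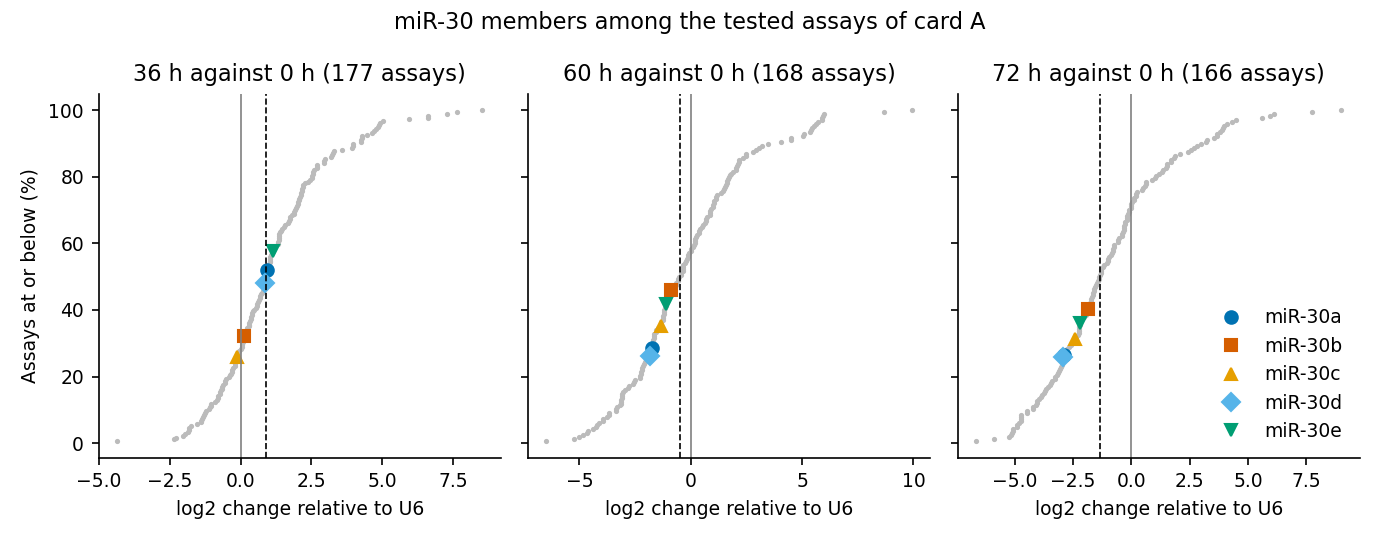
Cumulative distribution of the log2 change relative to U6 over the tested card A assays (grey points) at 36 h, 60 h and 72 h against 0 h, with the 5 miR-30 members marked, a solid line at 0 and a dashed line at the median assay. At 36 h miR-30a, miR-30d and miR-30e sit near the median and miR-30b and miR-30c below it, while at 60 h and 72 h all 5 sit below the median. Relative to 0 the same points shift up at each time with snoRNA202, snoRNA135 and U87. With the global mean they shift down at 36 h and up at 60 h and 72 h. With Y1 they shift down at 36 h and 60 h and up at 72 h.

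In ranks, 91 of the 177 tested card A assays had a lower change than miR-30a at 36 h, 84 a lower one than miR-30d and 101 than miR-30e, against 56 for miR-30b and 45 for miR-30c. At 72 h, 42 of 166 assays were below miR-30d, 43 below miR-30a, 51 below miR-30c, 59 below miR-30e and 66 below miR-30b.

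The ratios between members ask whether the family moved as a unit, and they do not depend on the normalizer, which cancels within an array. For each pair, the difference of levels on the same array was compared over the 4 groups by an exact permutation test of the F statistic over all 369600 assignments of the 12 arrays (smallest possible p 6.49e-05). The ratio changed in 9 of 10 pairs, with Benjamini-Hochberg adjusted exact p between 0.000433 and 0.00101. Pairs of other card A assays were not tested in this way, so the count cannot be called particular to the family. The exception was miR-30a and miR-30d, whose difference stayed within 0.11 between group means (2.04 ± 0.10 on the 0 h arrays, 2.11 ± 0.11 at 36 h, 2.15 ± 0.19 at 60 h and, last, 2.08 ± 0.17 at 72 h, mean ± SD, exact permutation p = 0.814, n = 3).

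The separation at 36 h ran between miR-30a, miR-30d and miR-30e on one side and miR-30b and miR-30c on the other. The array-wise difference miR-30a minus miR-30b was -1.75 to -1.69 on the 0 h arrays, -0.94 to -0.80 at 36 h, -2.63 to -2.50 at 60 h and, last, -2.81 to -2.60 at 72 h. The ratio of miR-30a to miR-30b was thus 0.82 above its 0 h value at 36 h, with a shift of -0.83 at 60 h (log2), and with no overlap of the 36 h arrays with any other group. The difference miR-30c minus miR-30e was 3.24 to 3.36 on the 0 h arrays, 1.97 to 2.10 at 36 h, 2.97 to 3.20 at 60 h and, last, 3.05 to 3.13 at 72 h. This was the widest change of any pair at 36 h, -1.27, and it had returned to within 0.23 of its 0 h value at 60 h. Over all 6 pairs across the divide the change at 36 h was between 0.75 and 1.27 in size. The sides were drawn from these same changes, so the gain of the first group on the second in each pair follows from the split.

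Within the sides smaller shifts were measured. miR-30e gained on miR-30a over time: miR-30a minus miR-30e was 0.62 to 0.73 on the 0 h arrays, 0.40 to 0.50 at 36 h, -0.02 to 0.12 at 60 h and, last, -0.06 to 0.06 at 72 h. The 60 h and 72 h arrays overlapped each other and lay apart from the earlier groups. miR-30b gained on miR-30c, with miR-30b minus miR-30c at -0.97 to -0.82 at 0 h and -0.41 to -0.30 at 72 h. From 60 h to 72 h the largest shift of a pair's mean difference was -0.18, for miR-30a minus miR-30b.

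**Figure D4:**
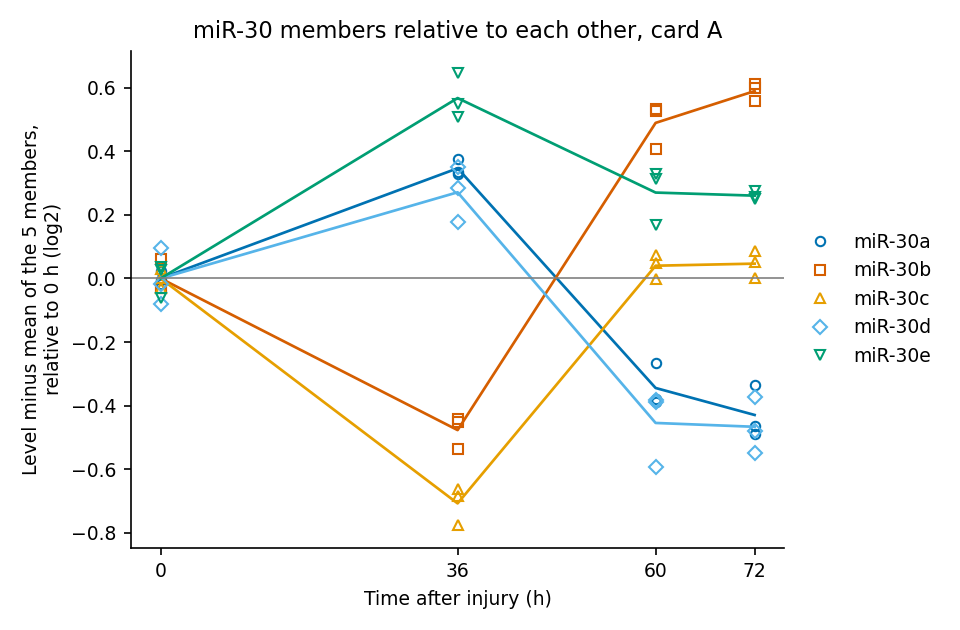
Level of each member minus the mean of the 5 members on the same array, set to 0 at its 0 h mean (log2), against time after injury; open symbols are single arrays and lines join group means. The normalizer cancels here: miR-30a, miR-30d and miR-30e lie above the family mean at 36 h and miR-30b and miR-30c below it, and at 60 h and 72 h miR-30b and miR-30e are the highest and miR-30a and miR-30d the lowest.

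Set beside the sequences and positions, the pair miR-30a and miR-30e, which differ at 1 base and lie on different chromosomes, stayed on the same side at 36 h and their difference had shifted by -0.61 at 60 h. The miR-30c assay, which sums a hairpin near that of miR-30e and one near that of miR-30a, was on the other side from both at 36 h. Neither of its hairpins was measured separately.

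The other strands of the miR-30 hairpins were measured on card B. The hairpins of miR-30a and miR-30e are printed with both strands in capitals, the 5p strand first, because these were the hairpins with both strands detected on every array.
Mir30a: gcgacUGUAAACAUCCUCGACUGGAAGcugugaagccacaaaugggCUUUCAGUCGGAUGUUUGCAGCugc
Mir30e: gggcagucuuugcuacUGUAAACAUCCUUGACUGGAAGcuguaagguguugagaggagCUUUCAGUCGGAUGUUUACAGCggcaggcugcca
The 3p strands miR-30a* and miR-30e* were identical at 21 of 22 positions, differing by G18A. The level of miR-30a* was -6.67, -6.44 and -6.29 on the 0 h arrays, -6.86, -6.72 and -6.76 at 36 h, -8.21, -8.07 and -8.17 at 60 h and, last, -8.83, -8.81 and -8.81 at 72 h. Its arrays at 36 h lay just below those at 0 h (log2 -0.32 ± 0.12, adjusted p = 0.0328, under 2-fold). The level of miR-30e* was -6.74, -6.41 and -6.30 on the 0 h arrays, -6.76, -6.55 and -6.63 at 36 h, -7.97, -7.78 and -7.95 at 60 h and, last, -8.50, -8.55 and -8.52 at 72 h. Its 0 h and 36 h arrays overlapped (-0.16 ± 0.14, adjusted p = 0.297). Both were called lower at 60 h (-1.69 for miR-30a* and -1.42 for miR-30e*) and at 72 h (-2.35 and -2.04) relative to U6, while snoRNA202 on the same card changed by -2.55 and -2.61, so that relative to it both strands lay above 0 h.

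The changes of the strands of a hairpin are set side by side here without a test, because the strands were read on different cards whose arrays were not treated as paired. The change of miR-30a at 36 h minus that of miR-30a* was 1.25 ± 0.15 (SE combined from both fits), and that of miR-30e minus that of miR-30e* was 1.31 ± 0.16. At 60 h these differences were -0.06 ± 0.15 and 0.29 ± 0.16. This comparison was added after the data were seen. For control RNAs read on both cards, the change on card A minus that on card B at 36 h was -0.38 (Y1) to 0.24 (U87), and at 72 h it was -1.05 to -0.42, so no strand comparison at 72 h is made. With other normalizers the strand difference at 36 h was 0.74 (global mean) to 1.63 (Y1) for miR-30a and 0.80 to 1.69 for miR-30e.

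**Figure D5:**
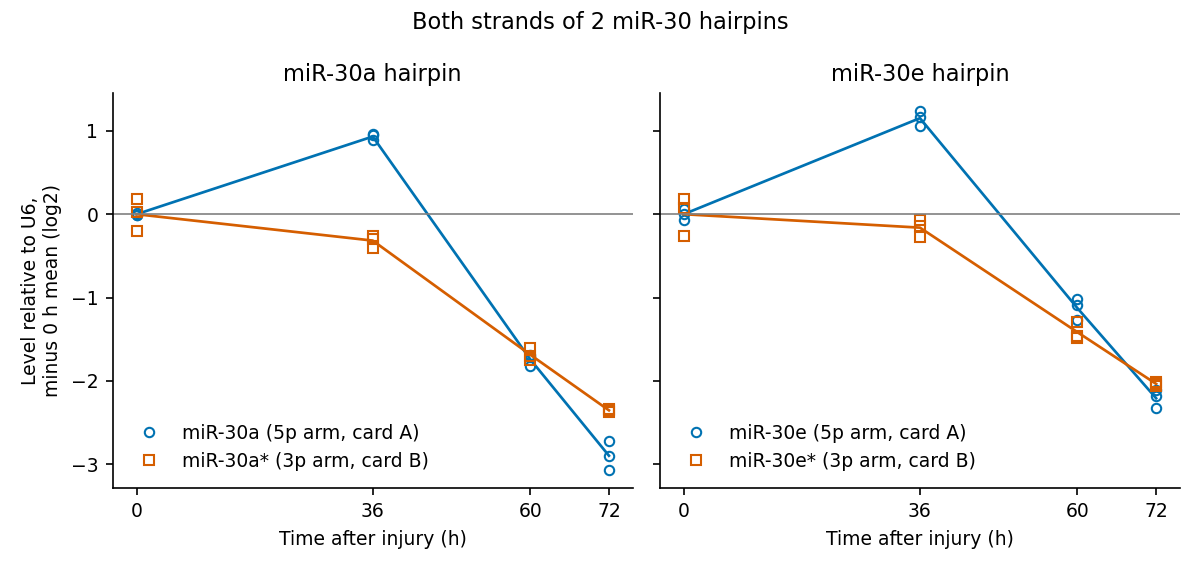
Level relative to U6 minus the 0 h mean (log2) of the 5p strand (card A, circles) and the 3p strand (card B, squares) of the miR-30a and miR-30e hairpins against time after injury; symbols are arrays and lines join means. At 36 h the 5p strands lie at 0.93 and 1.15 and the 3p strands at -0.32 and -0.16 relative to U6 (with the global mean each 5p strand is also below 0), and at 60 h the strands lie within 0.29 of each other.

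The other 3p assays were sparse. rno-miR-30d*, a rat assay, was detected on no 0 h array, on 3 of 3 arrays at 36 h and 60 h and on 2 of 3 at 72 h. Against the level of Ct 35 at 0 h it was at least 14.2-fold higher at 36 h and at least 10.6-fold higher at 60 h relative to U6. Both groups were read late in the PCR, with mean Ct 30.3 and 31.5. miR-30b* was detected on 2 arrays, both at 36 h, and miR-30c-1* and miR-30c-2* on none of the 12.

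miR-384-5p, the seed-sharing miRNA outside the family name, was detected on 12 of 12 arrays but late, with Ct 28.9 to 33.0. Its level was -15.99, -14.48 and -14.85 on the 0 h arrays, -14.04, -14.09 and -14.17 at 36 h, -17.57, -15.99 and -16.44 at 60 h and, last, -16.72, -17.08 and -17.55 at 72 h. The 36 h arrays were the highest and overlapped no other group, and the 60 h and 72 h arrays overlapped. The log2 change was 1.01 ± 0.46 at 36 h (adjusted p = 0.0677), -1.56 ± 0.46 at 60 h (adjusted p = 0.00929) and -2.01 ± 0.46 at 72 h (adjusted p = 0.00219), all relative to U6. Its 3 arrays per group spread up to 0.82 (SD), well above the members' 0.171.

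The card A assays most like the family were those with the smallest root mean square difference from the mean change of the 5 members at 36 h, 60 h and 72 h (0.59, -1.40 and -2.47), among 147 assays detected on 12 of 12 arrays. They were miR-194 (0.17), miR-361 (0.26), miR-27b (0.30), miR-26b (0.33) and miR-203 (0.34), and miR-384-5p came next (0.37). The members themselves lay 0.38 (miR-30a) to 0.52 (miR-30b) from their own mean, so these assays were closer to it than any member was. The changes of miR-194 were 0.62, -1.69 and -2.46, and those of miR-27b, which is reported to repress Pax3 in muscle stem cells, were 0.32, -1.13 and -2.10.

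Other families gave the following values relative to U6, with no test between families. The let-7 family, which is known for accumulating as cells differentiate, had 6 of 9 assays tested, of which 5 were called lower and 1 higher at 72 h, against 45.9% and 20.9% of all tested assays, with a median change of -1.61. Its members spread further than miR-30, from -3.26 (let-7c) to 1.88 (let-7i). The miR-29 family, known for targeting collagen mRNAs, had 3 of 3 called higher at 36 h, against 44.1% of all tested assays (median 2.70), and 1 of 3 called lower at 72 h (median -0.17). The miR-26 family had 2 of 2 called lower at 72 h (median -3.42). The miR-30 median at 72 h was -2.42, beside -0.77 for all tested assays and -1.37 for those of card A.

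In the authors' deposited table, the average fold changes at 36 h against day 0 were 1.91 for miR-30a, 1.08 for miR-30b, 0.920 for miR-30c, 1.81 for miR-30d and 2.22 for miR-30e. At 60 h the authors' deposited table gave 0.299, 0.533, 0.390, 0.278 and 0.459 in the same order. Both sets are on the same side of 1 as the changes above for each member. For the card B strands they are not: at 36 h the authors' deposited table gave 3.97 and 3.73 for the spots of miR-30a* and 4.39 and 4.18 for those of miR-30e*, where the changes above were -0.32 and -0.16 (log2). In the authors' deposited table the Ct minus dCt at 36 h was 16.97 on card B, whereas the mean U6 Ct of the 36 h arrays of that card was 14.714; on card A and at 0 h and 60 h on both cards these values differed by at most 0.001.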

How the data were processed

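The arrays were TaqMan rodent miRNA cards A and B run for 40 cycles on Trizol RNA, per the labels. Card type was read from assay names. Per the file headers, each array's deposited file holds a Ct per spot, an inverse log2 scale; software and threshold stay not given in the sources used here. Tables deposited by the authors give Ct, dCt on a log2 scale and average fold changes, linear ratios against day 0; 48 per-sample columns, including day 3.5 (the labels say 72 h), were not used. Spots of an assay were averaged, detection required every spot below Ct 35, and an assay was tested with at least 2 detected arrays in both groups. Levels are mean U6 Ct minus Ct per array. For tests, limma (version 3.58.1, under R 4.3.3) fitted the 12 arrays of a card together with lmFit, contrasts.fit and eBayes, with Benjamini-Hochberg adjustment over both cards within each of 6 comparisons. Errors are standard errors, n = 3, unless called SD. Scripts were tested on simulated data. Arrays have no read depth; their number limits the precision. Replicate numbers were not used to pair the samples in the main fits. Alternatives were 5 other normalizers (U87 chosen after seeing the data), U6 averaged per group, 2 other detection limits, no filter, a replicate block, the compared groups alone, a trended prior, adjustment within card A and leaving out each array. Always named were the 5 members, the other strands, assays with the seed, the 5 nearest assays by change and up to 4 examples per reference family. Members, lists and tests were chosen with earlier results of these data known.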

Additional observations from a re-analysis of the deposited data

Results flagged for a closer look

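Members with opposite directions at different times relative to U6 were miR-30a, miR-30d and miR-30e, which lay above 0 h at 36 h and below it later. The difference between times was itself tested with limma: from 36 h to 60 h the log2 change was -2.67 for miR-30a, -2.71 for miR-30d and -2.28 for miR-30e, and from 36 h to 72 h it was -3.83, -3.79 and -3.36. These differences were lower in 3 of 3 arrays of the later group, with adjusted p between 2.51e-11 and 2.79e-09, and kept their sign under every normalizer tried. The opposite directions against 0 h did not hold under 2 of the normalizers: with snoRNA202 these members lay above 0 h at all later times, and with the global mean below 0 h at all of them. With U87, added after the data were seen, they held for these members, though miR-30e was at -0.07 at 60 h (limma adjusted p = 0.696). With Y1 they held in sign, but the 36 h changes were small. They were 0.28 for miR-30a (limma adjusted p = 0.0337), 0.20 for miR-30d (0.108) and 0.50 for miR-30e (0.000732).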

How the results depend on the processing

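The normalizer decided direction against 0 h and most lost calls; why the control RNAs differ was not tested. U87 was added after seeing the data. With snoRNA202 the members called were 3 (36 h against 0 h), 3 higher (60 h against 0 h), 1 higher (72 h against 0 h), 2 (60 h against 36 h), 0 (72 h against 60 h) and 3 (72 h against 36 h). From miR-30a to miR-30e the changes with snoRNA202 turned to 0.66, 1.497, 1.05, 0.55 and 1.28 at 60 h and to 0.15, 1.17, 0.62, 0.11 and 0.84 at 72 h against 0 h; against 36 h, miR-30b was at 0.51 and miR-30c at 0.29 at 60 h, and miR-30b at 0.18 at 72 h. With the global mean the members called were 2, both lower (36 h against 0 h), 2 (60 h against 36 h), 0 (72 h against 60 h) and 3 (72 h against 36 h); 3 were called at 60 h (miR-30e -0.97) and 4 at 72 h against 0 h (miR-30b -0.85). From miR-30a to miR-30e the changes were -0.36, -1.18, -1.41, -0.43 and -0.14 at 36 h against 0 h, and with it miR-30b and miR-30c turned to 0.43 and 0.21 at 60 h and to 0.33 and 0.021 at 72 h against 36 h. With snoRNA135, 3 members were called at 36 h, 3 at 60 h against 0 h (miR-30e -0.79), 4 at 60 h against 36 h (miR-30b -0.90) and 0 at 72 h against 60 h. With Y1, 0 were called at 36 h, 5 at 60 h against 0 h (miR-30b -1.02), 3 at 60 h against 36 h and 0 at 72 h against 60 h. All members called at 60 h or 72 h against 36 h were lower. Of all 279 assays tested at 60 h against 36 h, snoRNA202 gave 54 called lower and the global mean 64. In that comparison snoRNA135 gave 130 and Y1 99. Of all 270 assays tested at 72 h against 36 h, snoRNA202 gave 69 called lower and the global mean 68. With U87 they were 3 (36 h), 0 (60 h) and 2 (72 h against 0 h), 3 (60 h against 36 h), 0 (72 h against 60 h) and 3 (72 h against 36 h), and miR-30b was at 0.15 at 60 h and miR-30c at 0.031 at 36 h against 0 h. Where limma gave 0 calls, 4 or 5 of the 5 members (2 with U87 at 60 h against 0 h) had an unadjusted p under 0.05 and were under 2-fold. Over all assays the calls with snoRNA202 were 199 (60 h) and 190 (72 h against 0 h), mostly higher, 148 (60 h against 36 h), 46 (72 h against 60 h) and 139 (72 h against 36 h). At 60 h against 36 h, 94 of these were higher and 54 lower, and at 72 h against 36 h, 70 and 69. With the global mean the calls were 148 (36 h against 0 h), 139, 42 and 144 for the 3 comparisons between later groups, with snoRNA135 158 (60 h against 0 h) and 59 (72 h against 60 h), and with U87 162 (60 h) and 159 (72 h against 0 h), mostly higher, and 60 (72 h against 60 h), beside 153, 161, 163, 153, 97 and 198 with U6. Directions moved as well. The global mean gave 59 higher and 89 lower at 36 h against 0 h, beside 120 and 33 with U6. At 60 h against 36 h it gave 75 and 64, beside 15 and 138. At 72 h against 60 h it gave 25 and 17, beside 2 and 95. At 72 h against 36 h it gave 76 and 68, beside 11 and 187. With snoRNA135 at 60 h against 0 h, 82 were higher and 76 lower, beside 70 and 91 with U6.

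Leaving out 1 array gave 1 to 1, 4 to 4, 5 to 5, 4 to 5, 3 to 4 and 5 to 5 members called, and 143 to 153, 150 to 158, 155 to 164, 146 to 153, 92 to 101 and 188 to 196 assays, in the order 36 h, 60 h and 72 h against 0 h, 60 h against 36 h, 72 h against 60 h and 72 h against 36 h. The calls lost were miR-30b at 60 h against 36 h (-0.99 without ASC 36 h replicate 2) and miR-30c at 72 h against 60 h (-0.99 without ASC 72 h replicate 3). The count of changed ratios was 9 of 10 without each array, with arrays exchanged within a replicate number, and with the range of group means as statistic. Same-numbered arrays correlated in their deviations at -0.27 to 0.36 on card A (5 of 18 pairs over 0.1) and at -0.43 to 0.49 on card B (4 of 18). The main fits used no pairing because the replicates are called technical and no shared batch is given. Such correlations cannot exclude a shared preparation. With the replicate block the members called were 1, 4, 5, 5, 4 and 5, as without it. The detection limits of Ct 40 and Ct 32, no filter, the groups alone, the trended prior, the group mean of U6 and adjustment within card A left each member's direction and call as they were in all 6 comparisons. Signal limits miR-384-5p and rno-miR-30d*, read above Ct 28; the replicates are technical, so nothing here covers variation between mice.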
